A study of Mus musculus with 2 samples.

Results

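Pattern receptors of the Toll-like and NOD families were examined in the injured colon of mice with and without epithelial HIF-2α. The group was defined by name as 10 genes: the Toll-like receptors Tlr1, Tlr2, Tlr3, Tlr4 and Tlr5, the lipopolysaccharide co-receptor genes Cd14 and Ly96, the adaptor gene Myd88, and the cytosolic receptors Nod1 and Nod2. Every probe set carrying 1 of these symbols was taken, which gave 13 probe sets for 9 of the 10 genes, out of 18193 genes with a value. No probe set with the symbol Nod2 was among those used here, so this receptor of bacterial muramyl dipeptide has no value.

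Samples were colon mucosal scrapings from C57BL/6 mice exposed to 3% dextran sulfate sodium (DSS), a sulfated polysaccharide used to cause colitis, over 3 days. One genotype, Hif-2αF/F, has floxed (F/F) alleles of Epas1, which encodes the hypoxia-inducible factor subunit HIF-2α. The other, Hif-2αΔIE, is read from knowledge of this mouse model as lacking the gene in the intestinal epithelium; the sources used here do not name the promoter that drives the recombinase. Animals of both genotypes received DSS and no untreated colon was measured. The age is labelled as 6 to 8 weeks, while the design text gives 7 weeks and counts 6 F/F and 5 ΔIE mice. Each genotype is represented by 1 array, and the sources used here do not say whether RNA was pooled, so no standard error or test between genotypes exists and every difference compares these 2 arrays. Levels are RMA values (robust multi-array averaging) on the log2 scale, and each difference is the ΔIE level less the F/F level, also in log2 units.

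Toll-like receptors are membrane proteins that bind microbial products and signal through their TIR domains. Most of them recruit MyD88, which leads to NF-κB and cytokine genes, whereas TLR3, the receptor of double-stranded RNA, signals through TRIF (the product of Ticam1). TLR4 recognises lipopolysaccharide together with MD-2 (the product of Ly96) after CD14 has handed the ligand over, TLR2 pairs with TLR1 or TLR6 to bind bacterial lipopeptides, and TLR5 binds flagellin. NOD1 and NOD2 sense peptidoglycan fragments in the cytosol. In the gut, TLR3, TLR5 and NOD1 are known from epithelial cells, while TLR1, TLR2, TLR4, CD14, MD-2 and NOD2 are abundant in macrophages, monocytes and other myeloid cells; colon epithelium is known to express TLR2 and TLR4 too.

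Promoter windows are given first because the study removes a transcription factor and the receptors did not all differ in the same direction. RefSeq windows (build GRCm38.p6, 250 bases before to 50 after the start) were matched for 7 of the 10 genes, 9 windows in all. The windows below are those of Tlr5 and Tlr3, which were higher on the ΔIE array, and of Tlr2 and Myd88, which were lower. They are written 5′ to 3′ on the gene's strand, and capitals mark any match to 4 motifs searched on both strands. These were the HIF core (ACGTG or GCGTG, the first of which also lies within the E-box CACGTG), the NF-κB consensus, the PU.1 core of myeloid promoters (GAGGAAG) and the interferon-stimulated response element (GAAANNGAAA).
Tlr5, chr1:182954538-182954837, plus strand: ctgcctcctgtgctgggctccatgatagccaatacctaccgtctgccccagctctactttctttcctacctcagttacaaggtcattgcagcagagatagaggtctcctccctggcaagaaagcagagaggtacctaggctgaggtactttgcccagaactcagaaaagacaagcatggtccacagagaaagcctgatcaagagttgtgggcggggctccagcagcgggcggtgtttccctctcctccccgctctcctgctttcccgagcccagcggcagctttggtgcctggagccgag
Tlr3, chr8:45410331-45410630, minus strand: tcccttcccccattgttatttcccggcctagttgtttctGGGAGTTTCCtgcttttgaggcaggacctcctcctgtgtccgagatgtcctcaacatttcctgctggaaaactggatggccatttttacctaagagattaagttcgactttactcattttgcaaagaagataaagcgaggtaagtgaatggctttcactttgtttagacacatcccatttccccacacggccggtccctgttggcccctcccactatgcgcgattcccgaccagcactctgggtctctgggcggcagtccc
Tlr2, chr3:83841559-83841858, minus strand: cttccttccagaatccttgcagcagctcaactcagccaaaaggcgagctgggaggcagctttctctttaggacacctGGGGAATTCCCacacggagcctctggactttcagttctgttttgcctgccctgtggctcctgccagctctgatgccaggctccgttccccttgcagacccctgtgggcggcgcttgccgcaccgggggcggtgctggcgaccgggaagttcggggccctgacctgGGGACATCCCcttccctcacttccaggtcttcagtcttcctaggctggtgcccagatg
Myd88, chr9:119339969-119340268, minus strand: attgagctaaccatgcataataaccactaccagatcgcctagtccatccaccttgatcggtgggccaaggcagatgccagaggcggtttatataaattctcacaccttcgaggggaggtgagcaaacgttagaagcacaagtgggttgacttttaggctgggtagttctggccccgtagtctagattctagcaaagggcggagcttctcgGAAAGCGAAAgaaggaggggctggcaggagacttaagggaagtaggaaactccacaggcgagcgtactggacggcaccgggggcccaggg
The NF-κB consensus was found in the Tlr2 and Tlr3 windows, 2 of the 9, and in 4.51% of all 32851 windows. In Tlr2 it occurred in 2 stretches, the first of which holds overlapping matches. The interferon element was found in Myd88 and in 3.44% of all windows. None of the 4 motifs was found in the Tlr5 window. The HIF core was found in 2 of the 9 windows, 1 each of the alternative starts of Tlr1 and Nod1, against 43.8% of all windows, and the PU.1 core in 1 window, the other start of Tlr1, against 13.6%. A match describes the letters only, and its absence says nothing about binding of the factor, since the window is 300 bases long.

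Of the 9 receptors and adaptors measured, 6 were lower and 3 higher on the ΔIE array, with a median difference of -0.29. Over the 11593 genes above the expression filter (a mean of both arrays of at least 6.11, the median over all probe sets), the median was 0.02, the quartiles were -0.17 and 0.19, 46.1% were lower and 53.1% were higher. All 9 measured genes passed this filter, which uses the mean of both arrays and so treats the arrays alike. A gene below 6.11 on 1 array can still pass it. Only Cd14 was at least 2-fold lower, against 4.92% of all genes kept, and no receptor was 2-fold higher, against 1.11%. As a yardstick for the probe sets, the 2 brightest probe sets above the filter were compared in 4900 genes, and their differences lay within 0.39 of each other in 95% of cases. By this measure the differences of 4 of the 9 genes, Cd14, Tlr4, Myd88 and Tlr5, were larger than the disagreement between probe sets, as were those of 23.6% of all genes kept. Tlr5 passed it by little (0.42) and did not pass it after median centring (0.37) or lowess correction (0.38), nor did Tlr4 with its 4 probe sets averaged (-0.38). Myd88 passed it by less than Tlr5 (-0.40), and was -0.44 after either correction. The yardstick covers neither variation between mice nor between arrays.

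**Figure D1:**
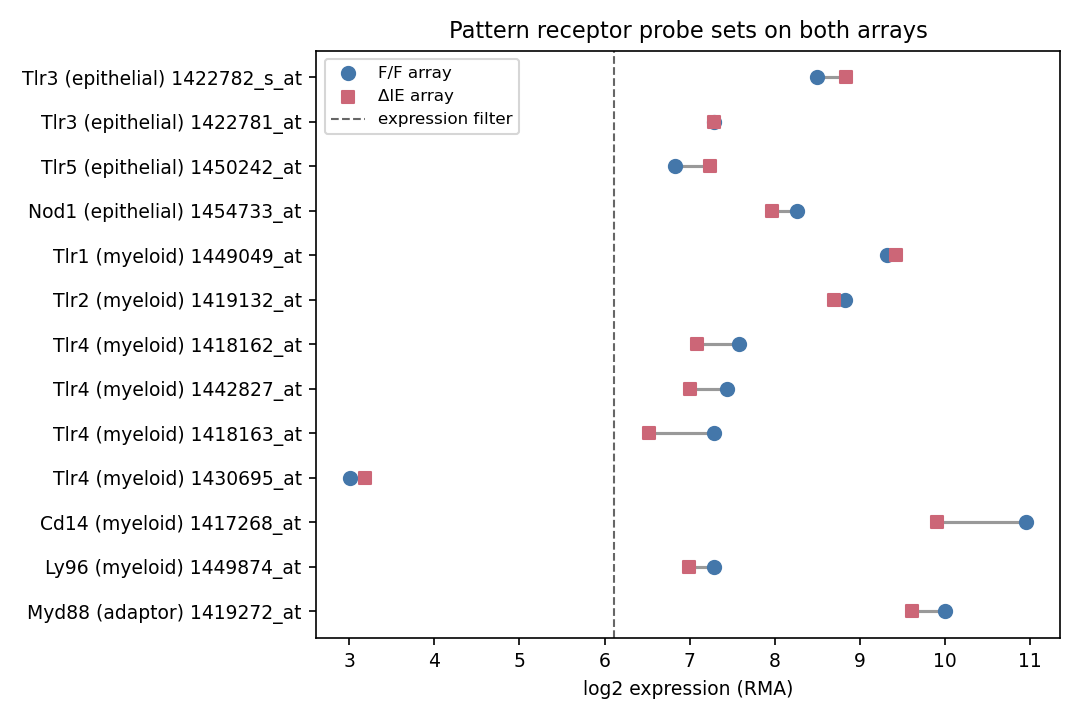
Level of each of the 13 probe sets (log2 expression, RMA) on the F/F array (circles) and the ΔIE array (squares), with the gene, its group and the probe set at the left; the dashed line is the expression filter at 6.11. Cd14 shows the widest gap, from 10.95 to 9.91, and 1 probe set of Tlr4 lies far below the filter on both arrays.

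The lipopolysaccharide receptor complex was lower on the ΔIE array in each of its 3 components. Cd14, which encodes the surface protein that passes lipopolysaccharide to the receptor, read 10.95 on the F/F and 9.91 on the ΔIE array by its single probe set (1417268_at). The difference of -1.04 is 2.06-fold, and 4.56% of all genes kept had a lower one. Cd14 is therefore just past the 2-fold limit and not among the extremes of the table.

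Tlr4, the signalling receptor itself, has 4 probe sets. The brightest (1418162_at) read 7.58 for F/F and 7.09 for ΔIE, a difference of -0.49, or 1.41-fold. The next (1442827_at) read 7.44 and 7.00, a difference of -0.44. The third (1418163_at) read 7.28 and 6.52, a difference of -0.76, or 1.70-fold. These 3 probe sets, all above the filter, were thus lower on the same array. The fourth (1430695_at) read 3.01 and 3.18, far below the filter, where RMA values hold little information. Ly96, which encodes MD-2, the subunit of the receptor that holds the lipid part of the ligand, read 7.29 for F/F and 6.99 for ΔIE. Its difference of -0.30, from 1 probe set, is within the disagreement between probe sets of a gene.

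The receptors of bacterial lipopeptides hardly differed. Tlr2 (1419132_at) read 8.82 for F/F and 8.70 for ΔIE, a difference of -0.12, or 1.09-fold. Tlr1 (1449049_at), its partner for triacylated lipopeptides, read 9.32 and 9.42, a difference of 0.11. Both differences lie inside the middle 50% of all genes kept. Tlr6, the alternative partner of TLR2 and the next coding gene to Tlr1 on chromosome 5, read 5.84 and 4.86, a difference of -0.98. Its values lie below the filter on both arrays, so the size of that difference is uncertain.

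Flagellin and double-stranded RNA receptors were on the other side of 0. Tlr5 (1450242_at) read 6.83 for F/F and 7.24 for ΔIE, a difference of 0.42, or 1.33-fold, and 8.40% of all genes kept had a higher one. It was the highest difference among the 9 genes. The 2 probe sets of Tlr3 differed from each other. The brighter (1422782_s_at) read 8.50 and 8.84, a difference of 0.34. The dimmer (1422781_at) read 7.29 and 7.28, a difference of -0.01. The suffix of the brighter one marks a probe set that can match more than 1 transcript, so the higher value of Tlr3 rests on that probe set.

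Nod1 (1454733_at), the cytosolic receptor of peptidoglycan from Gram-negative bacteria, read 8.26 for F/F and 7.97 for ΔIE, a difference of -0.29. It went the opposite way from the other receptors assigned to the epithelium, by an amount within the disagreement between probe sets. Myd88 (1419272_at), the adaptor shared by these Toll-like receptors except TLR3, read 10.002 and 9.606, a difference of -0.40, or 1.32-fold. That places the adaptor between Tlr4 and Ly96 in the order of differences.

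**Figure D2:**
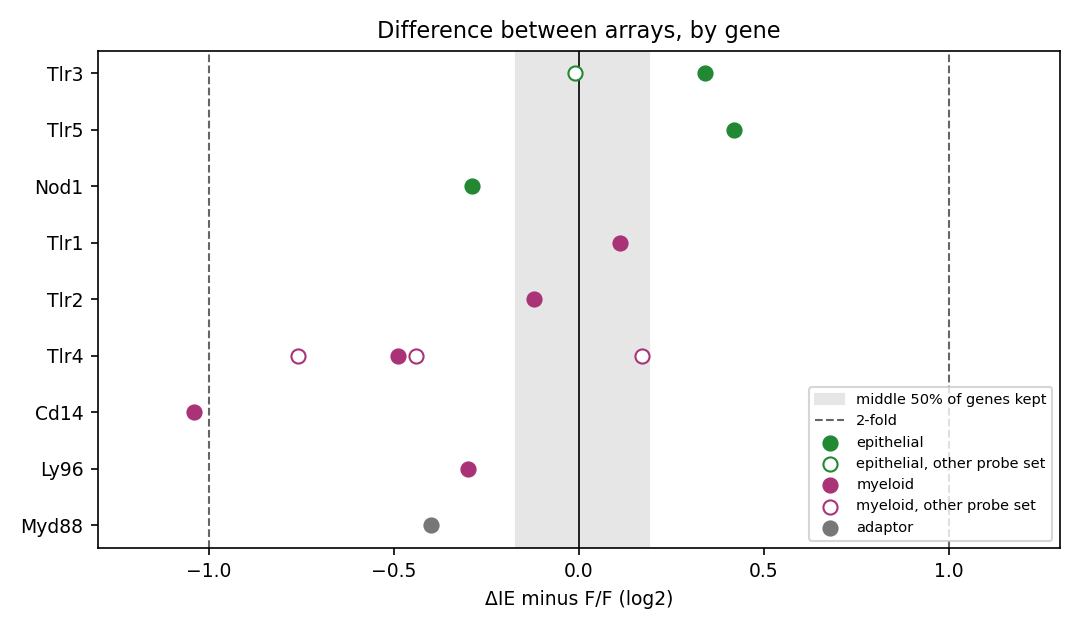
Difference ΔIE minus F/F (log2) for each gene, with the probe set that stands for the gene filled and its other probe sets open; the grey band is the middle 50% of all genes kept (-0.17 to 0.19) and the dashed lines mark 2-fold. Cd14 alone lies past a dashed line, Tlr5 and the brighter probe set of Tlr3 lie to the right of the band, and Tlr1 and Tlr2 lie inside it.

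Epithelial receptors were then set against myeloid ones. The 3 epithelial receptors, Tlr3, Tlr5 and Nod1, had a median difference of 0.34, with values from -0.29 to 0.42. The 5 myeloid receptors with a value, Tlr1, Tlr2, Tlr4, Cd14 and Ly96, had a median of -0.30, with values from -1.04 to 0.11. The ranges of the groups overlap, since Nod1 was lower than Tlr1 and Tlr2. The medians lay 0.64 apart, and 0.29 apart when probe sets that may match several transcripts were left out, so that Tlr3 was represented by its dimmer probe set. With Tlr2 and Tlr4 counted as epithelial, they lay 0.17 apart. No test of this contrast is possible with 1 array per genotype.

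Markers of the cells that carry these receptors differed on the same arrays. All 15 macrophage and monocyte markers kept, of 16 listed, were lower on the ΔIE array, 8 by 2-fold or more, and the median was -1.02; their mean level was 9.39 on the F/F and 8.41 on the ΔIE array. Itgam, an integrin subunit of myeloid cells, read 7.37 and 5.89, its ΔIE level lying below the filter. Fcgr1, a high-affinity Fc receptor, read 8.27 and 6.84, but its other probe set differed by -0.42. All 10 neutrophil markers kept were lower as well, with a median of -1.53 and mean levels of 10.99 and 9.60. Of 6 dendritic cell markers measured, 2 passed the filter, Itgax at -0.79 and Flt3 at -0.32, and Zbtb46, Xcr1, Batf3 and Ccr7 were below it. The B cell list, another source of Tlr1, had a median of -1.73 over 5 genes and mean levels of 8.74 and 6.85, and the T and NK cell list a median of -0.20. The 14 epithelial markers had mean levels of 12.91 and 13.03 and a median of 0.11, and none was 2-fold different. The part of these cell types in the receptor differences was not tested, and in bulk tissue fewer cells of a type and less RNA per cell cannot be told apart.

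Side by side with these lists, Cd14, Tlr4 and Ly96 lay within the range of the macrophage markers kept, -1.48 to -0.26. Tlr2 and Tlr1 lay outside it. Cd14 (-1.04) lay at the median of the macrophage list (-1.02). Tlr4 (-0.49) and Ly96 (-0.30) lay between that median and 0, and Tlr2 (-0.12) and Tlr1 (0.11) were nearer 0 than every macrophage marker kept, of which Cd163 (-0.26) and Cx3cr1 (-0.29) differed least. The other probe set of Cx3cr1 differed by 0.00, nearer 0 than Tlr2 or Tlr1. Tlr5 (0.42) lay above and Tlr3 (0.34) within the range of the epithelial markers, -0.23 to 0.37, and Nod1 (-0.29) lay below it. This range takes 1 probe set per gene. The 4 probe sets of Hnf4a, an epithelial marker, ran from 0.22 to 0.65, so Tlr5 was not above all probe sets of these markers. Hox genes of groups 10 to 13, markers of posterior gut, had a median of -1.46, and squamous epithelium genes a median of -1.55 on the same arrays. Fibroblast and endothelial markers had medians of -0.88 and -0.43, and smooth muscle and goblet cell markers medians of -0.08 and 0.21. The part of gut position in the receptor differences was not tested.

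**Figure D3:**
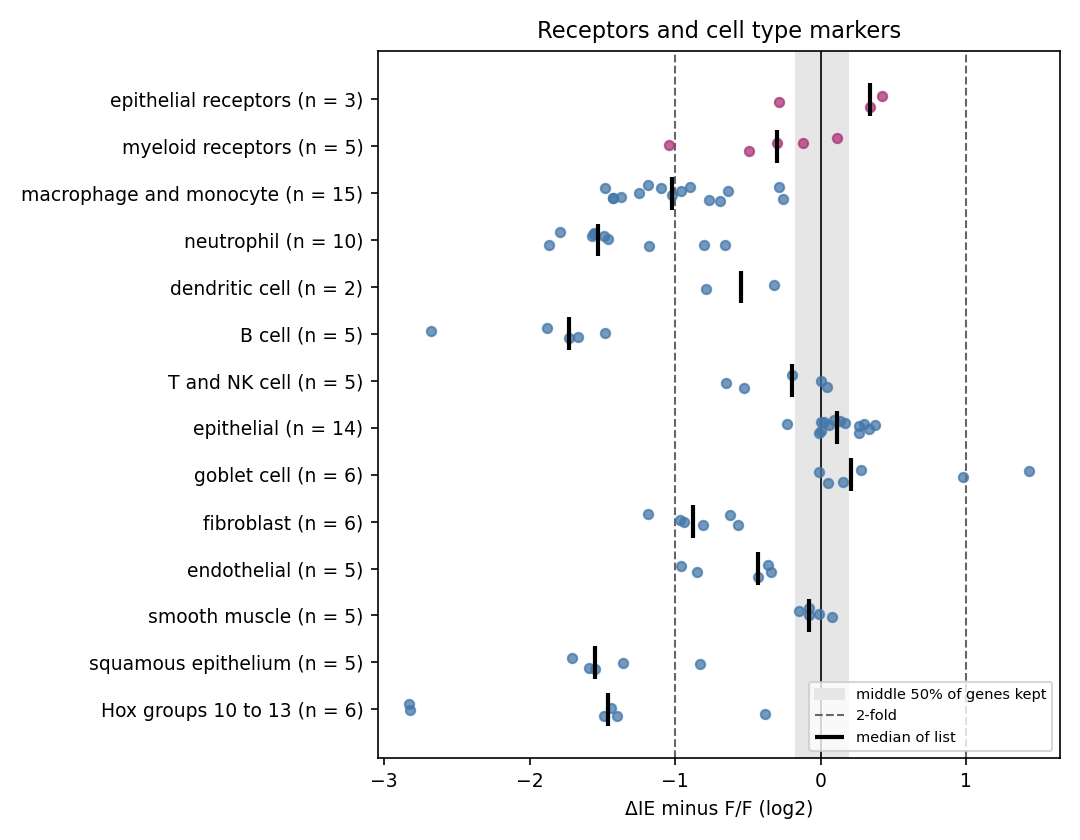
Difference ΔIE minus F/F (log2) of each gene above the filter, for the epithelial and myeloid receptors (top rows) and for 12 marker lists; black bars are list medians, the grey band is the middle 50% of all genes kept, and dashed lines mark 2-fold. The myeloid receptors run from -1.04 to 0.11, whereas the macrophage and monocyte markers run from -1.48 to -0.26 and the epithelial markers from -0.23 to 0.37.

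Other genes of the pathway were taken from 8 lists with 104 genes, of which 92 had a value and 75 passed the filter. Of the 75, 43 were lower, 13 at least 2-fold, and none was 2-fold higher, with a median of -0.08. Of the 13, 9 were receptor target genes. Over all genes kept, 46.1% were lower, 4.92% were at least 2-fold lower and 1.11% were 2-fold higher. These shares also apply to the counts of each list below. The other Toll-like receptors were mostly dim. Of 6 with a value, Tlr6, Tlr7, Tlr8, Tlr9 and Tlr12 were below the filter. Tlr13, an endosomal receptor of bacterial ribosomal RNA in mouse myeloid cells, read 7.67 for F/F and 6.68 for ΔIE, a difference of -0.99.

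Some accessory genes of the receptors were lower too. Lbp, which encodes the protein that delivers lipopolysaccharide to CD14, read 8.84 for F/F and 7.62 for ΔIE, a 2.32-fold difference, but its other probe set differed by -0.18. Ly86, which encodes MD-1, a relative of MD-2, read 10.17 and 8.96, also a difference of -1.21. Its partner gene Cd180, a Toll-like receptor homologue of B cells and macrophages, read 6.58 and 5.96. Cd36, a scavenger receptor that assists TLR2 and is also an adipocyte and endothelial gene, went the other way at 7.29 and 8.00, with its 3 probe sets between 0.19 and 0.72. In the list of 8, 6 genes were lower and 2 of these were 2-fold lower. The median of the list was -0.19.

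Downstream adaptors and kinases differed little as a list. Of 18 kept, 5 were lower and 12 higher, none reached 2-fold, and the median was 0.06 (0.01 after median centring). Irf5 counts among the 12 at 0.06, but its other probe set differed by -0.93. Tirap, which bridges TLR2 and TLR4 to MyD88, read 9.25 for F/F and 8.64 for ΔIE, and its other probe set differed by -0.41. Ticam1, the adaptor gene of TLR3, read 8.45 and 8.85, a difference of 0.39. Irf7, a transcription factor gene that is itself induced by interferon, read 10.12 and 10.92, a difference of 0.80. The difference of Ticam1 was about the size of the 0.39 yardstick, and that of Tirap was larger.

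Genes of NOD signalling and of peptide transport differed from gene to gene. Of the 8 genes kept, 1 was 2-fold lower, and the median was 0.06. Slc15a3, a lysosomal transporter of muramyl dipeptide in myeloid cells, read 8.18 for F/F and 6.77 for ΔIE, a 2.66-fold difference. Slc15a1, the apical peptide transporter that can carry muramyl dipeptide into epithelial cells, read 7.19 and 4.37; with a mean of both arrays below the filter, it is not among the 8. The related transporter genes Slc15a2 and Slc15a4 differed by 0.32 and 0.00. Birc3, a ubiquitin ligase of NOD and TNF signalling, read 10.83 and 10.17, and Erbin, a NOD2-binding scaffold gene, 10.71 and 11.16. With the probe sets of each gene averaged, and the filter applied to the averages, the genes kept differed and their median was -0.26.

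Negative regulators were lower in 8 of 10 cases, none by 2-fold, with a median of -0.28. Among the 8, the probe sets of Cyld ran from -0.11 to 0.39 and those of Irak3 from -0.32 to 0.06. Tnfaip3, which encodes the deubiquitinase A20 and is a target of NF-κB, read 10.55 for F/F and 9.61 for ΔIE, and its other probe set differed by -0.49. Zc3h12a, the gene of an RNase that degrades cytokine transcripts, read 9.02 and 8.34, but its other probe set differed by 0.01. Socs1, a cytokine signalling inhibitor gene, read 6.61 and 6.12.

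Other NOD-like receptors and inflammasome genes went both ways, with 5 of 11 kept lower, 6 higher, none at 2-fold and a median of 0.04 (0.00 after median centring). Nlrc5 and Ciita, the activators of MHC class I and class II genes, read 8.67 and 7.06 in F/F and 7.79 and 6.19 in ΔIE. Nlrx1, a mitochondrial member of the family, read 8.51 and 7.67. Nlrp10 read 5.87 and 4.02 and Nlrc3 5.30 and 3.95, below the filter on both arrays, and the 2 probe sets of Nlrc3 differed by -1.35 and 0.15. Of 7 cytosolic nucleic acid sensor genes, 3 were lower and 4 higher with a median of 0.13. Sting1, the adaptor gene of cytosolic DNA sensing, read 8.33 for F/F and 7.03 for ΔIE, a 2.47-fold difference borne by both of its probe sets (-1.31 and -1.22).

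As a list, transcripts that these receptors are known to induce had a lower median difference than the receptors themselves (-0.29). Every one of the 12 target genes kept was lower, 9 at 2-fold or more, with a median of -1.49. The list was chosen with earlier results of these data known, so its counts are not independent of them. Over all 16 measured, without a filter, the median was -1.24. Acod1, the gene of the itaconate-producing enzyme of activated macrophages, read 8.72 for F/F and 6.69 for ΔIE. Icam1, an adhesion molecule gene, read 8.79 and 7.39, and Marcksl1, which lipopolysaccharide induces in macrophages, read 11.22 and 9.61. Ptgs2, the gene of cyclooxygenase-2, read 8.47 and 7.45, but its other probe set differed by -0.16. The probe sets of Cxcl1, a chemokine gene, ran from -2.03 to -0.43. Ccl4 (-0.28) and Nfkbiz (-0.29) differed least of the 12, and the probe sets of Nfkbiz ran from -0.36 to 0.14. Several of these genes are also products of the myeloid cells whose markers were lower on the ΔIE array (-1.02 for the macrophage and -1.53 for the neutrophil list). The part of those cells in the target differences was not tested.

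**Figure D4:**
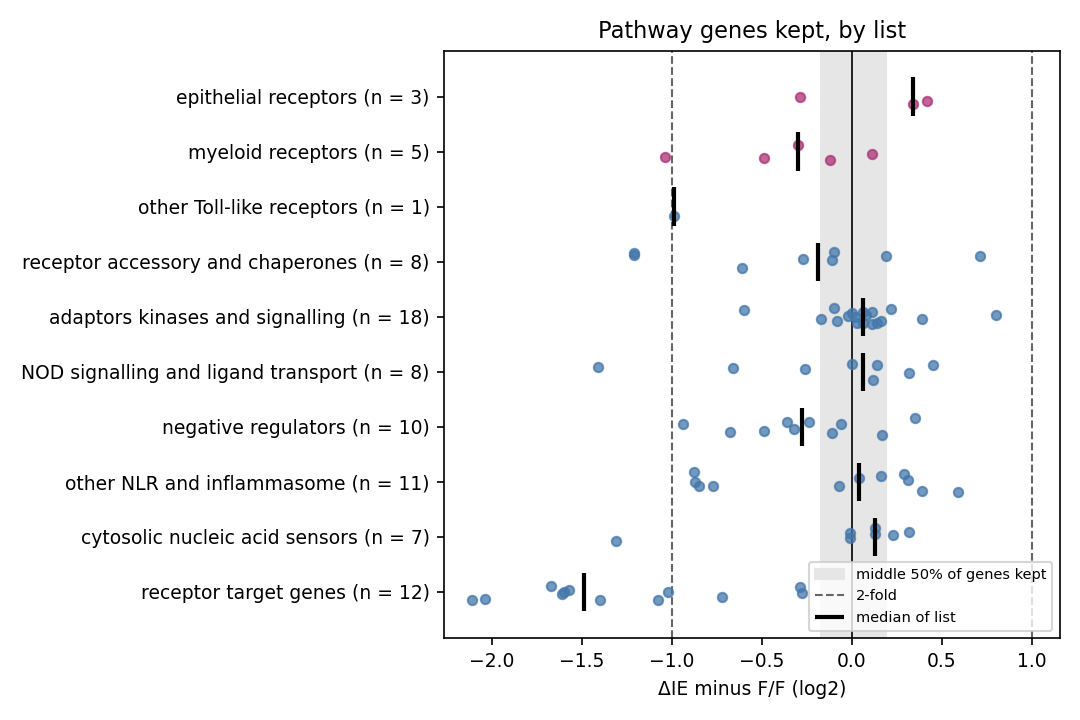
Difference ΔIE minus F/F (log2) of each gene above the filter, for the epithelial and myeloid receptors (top rows) and for 8 lists of other pathway genes; black bars are list medians, the grey band is the middle 50% of all genes kept, and dashed lines mark 2-fold. The adaptor and kinase list has a median of 0.06, whereas the receptor target genes have a median of -1.49.

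The arrays were checked against their labels. The 4 Cre recombinase control probe sets read 2.92 to 4.22 for F/F and 7.86 to 10.01 for ΔIE. Epas1 read 11.90 for F/F and 11.77 for ΔIE by its brighter probe set and 6.98 and 7.15 by the other, whose position relative to the deleted part was not determined here. Across the genes kept, the arrays correlated at Pearson r = 0.96, a correlation across genes, which are not independent replicates.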

How the data were processed

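Biotin-labelled amplified RNA from 250 ng of total RNA was hybridised to 1 array per genotype, per the labels' protocols. The deposited table holds log2 expression of 45101 probe sets, made by the authors with affy and RMA (background correction, quantile normalization and probe set summary), per the submitters' processing notes. The sources used here give no software versions or filters. Quantile normalization makes the distributions of arrays alike, so a shift of most genes would not be seen, and RMA compresses differences of dim probe sets. The number of arrays limits the precision.

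By the platform annotation, 34958 probe sets had 1 symbol, 932 had several and 9211 had none; those of the last 2 kinds, and the 64 control probe sets, were left out. A gene took its probe set of highest mean, which gave 18193 genes, of which 11593 had a mean of at least 6.11. A fold is 2 raised to the size of the log2 difference. With 1 array per genotype no test was run. The members and lists were chosen with earlier results of these data known. All members, and in each list genes at 2-fold or the 3 of largest difference, were eligible to be named. Cd163, Cx3cr1, Itgax, Flt3, the other dendritic cell markers, the dim Toll-like receptors, Slc15a2, Slc15a4 and the motifs were chosen after values were seen. So were Cd180, Irf5, Cyld, Irak3, Ccl4 and Nfkbiz. The gene-level steps were tested on simulated data. Alternatives were averaging probe sets, leaving out _s_at and _x_at probe sets, median centring, lowess (span 0.3), other filters, folds of 1.5 and 3, and other receptor groupings. Python 3.11.15, numpy 2.4.6, pandas 2.3.3, statsmodels 0.14.6 and matplotlib 3.10.9 were used.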

Additional observations from a re-analysis of the deposited data

How the results depend on the processing

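No paired analysis was possible because each genotype has 1 array and the labels carry no replicate numbers. A value was taken to have moved when it shifted by more than 0.21, the SD of the differences between probe sets of a gene. Of 36 alternative values for the 9 members, 35 stayed within that limit, but most of them could not have left it. Centring and lowess shift members by at most 0.05. The 7 members with 1 probe set do not change with the choice of probe sets. With probe sets ending in _s_at or _x_at left out, Tlr3 differed by -0.01. That alternative set the gap between epithelial and myeloid medians to 0.29, and moving Tlr2 and Tlr4 to the epithelial group set it to 0.17, both in the direction of 0.64. At 3-fold, 0 members were lower. Without a filter the median of the other Toll-like receptors was -0.17 in place of -0.99, a value that rests on Tlr13 alone, and that of the target genes -1.24. With probe sets averaged, the NOD list median was -0.26 in place of 0.06. The filter was then applied to the averaged levels, so this median covers a different set of genes. Median centring moved every difference down by 0.05 and lowess moved members by at most 0.05, and neither changed the number of members lower, 6. Background was not measured, so no detection call is made for any member.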
